A study of Mus musculus with 16 samples.

Results

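The genes described here were 38 genes of glycolysis and of the cellular response to low oxygen, measured in cultured explants of mouse epicardium with and without blebbistatin. They were chosen by name, with earlier results of these data known. The list held 2 glucose transporters, 15 glycolytic enzymes, 2 enzymes that set the level of fructose 2,6-bisphosphate and 5 genes of lactate and pyruvate handling. It also held 4 subunits or oxygen sensors of the hypoxia-inducible factors (HIF), and 10 genes listed as HIF targets outside metabolism. Whether each of these 10 responds to HIF in these explants was not tested. Of the 38, 37 had a row in the table of 15805 genes, and all 37 passed the filter on low counts and were tested. Ankrd37, a HIF target, was not analysed here.

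RNA was sequenced from 16 primary explants, 8 cultured with blebbistatin and 8 without it. Both groups came from C57BL6 mice and grew on collagen gel, and the labels describe the cells as epicardial. Blebbistatin inhibits myosin II, the motor protein that slides actin filaments and lets cells contract. Its labelled dose is 20, given once as mM and once as mm, which leaves the concentration open. The sources used here do not state whether the controls received the solvent or whether the 8 explants of a group came from separate animals. The p-values therefore measure the spread between these explants, which may be partly technical.

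Glycolysis converts glucose to pyruvate in the cytosol, and lactate dehydrogenase turns pyruvate into lactate, which leaves the cell through monocarboxylate transporters. HIF is a dimer of an oxygen-regulated alpha subunit and a stable beta subunit: with oxygen present, prolyl hydroxylases mark the alpha subunit for destruction, and without it the dimer binds a short DNA motif and raises the genes of glucose uptake, glycolysis, blood vessel growth, pH control and mitophagy. The epicardium, the outer layer of the heart, gives rise during development to fibroblasts and to smooth muscle of the coronary vessels.

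Total counts per library ran from 20176386 to 89620195 with blebbistatin and from 27065611 to 60321622 in controls. The epicardial markers fixed for the check (10 genes) were all in the table and summed to 3288 ± 1120 CPM in the treated explants and 4448 ± 1263 CPM in controls (SD, n = 8 each), where CPM stands for counts scaled to a fixed library total. Marker sums carry no further scaling, whereas the CPM of single genes were also scaled by TMM, edgeR's correction for composition. Several measures differed between the groups by exact permutation (2-sided, adjusted over 10 measures): the mitochondrially encoded share of counts was 21.4% ± 3.21 with blebbistatin and 16.4% ± 1.70 in controls (adjusted p = 0.0163), the summed smooth muscle markers stood at 722 and 1632 CPM (adjusted p = 0.00155), and the summed cardiomyocyte markers at 868 and 553 CPM (adjusted p = 0.0435). The smooth muscle sum ran from 528 to 998 CPM with blebbistatin and from 1115 to 1958 CPM in controls, and 2 of its 6 genes, Acta2 and Tagln, passed the test across all genes. The cardiomyocyte sum was nearly all Tnnt2, at 572 to 1035 CPM with blebbistatin and 334 to 851 CPM in controls, while Myh6 and Actc1 had medians under 1 CPM in both groups and 4 of the 8 markers were not in the table. Ryr2, the only other cardiomyocyte marker tested, was also higher, with medians of 2.27 CPM with blebbistatin and 1.06 CPM in controls (log2 fold change 2.12, edgeR adjusted p = 0.124). Macrophage markers summed to 244 to 3356 CPM with blebbistatin and 294 to 4326 CPM in controls, highest in blebbistatin library 3 and control library 6 (exact permutation adjusted p = 0.791). The sex of the explants is not labelled, and Y-linked counts (Ddx3y, Eif2s3y, Kdm5d and Uty) summed to 126 to 180 CPM in 5 of 8 treated and 2 of 8 control libraries and to 3.81 to 8.79 CPM in the others. Refits with the macrophage sum or the Y-linked level as a covariate are given where they bear on a result. Leaving out the mitochondrially encoded genes before scaling gave the same counts of calls as with them, 95 over all genes and 0 among the members. The part of the smooth muscle and cardiomyocyte sums in the values below was not tested. In RNA from whole explants, fewer cells of a type and less RNA per cell cannot be told apart.

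None of the 37 genes passed the test between blebbistatin and control. By edgeR's quasi-likelihood test, with p-values adjusted after Benjamini and Hochberg over the 15675 genes tested, 0 of 37 reached an adjusted p under 0.05, against 0.606% of all tested genes (95 genes). DESeq2 called 2 of the 37 (Slc16a3 and Aldoc) and 424 over all genes, and limma voom called 0 of the 37 and 123 over all genes. At an unadjusted p under 0.05 there were 11 of 37 (29.7%), 2 higher and 9 lower with blebbistatin, against a background of 12.2% of all tested genes. The 9 lower were Slc2a3, Tpi1, Gapdh, Eno1, Pkm, Pfkfb3, Slc16a3, Vegfa and Ero1l, where the background for that direction was 5.98%. The 2 higher were Aldoc and Ldhb, where it was 6.21%. The members and the other gene lists below were chosen with earlier results of these data known. A share above its background is therefore no independent result.

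Most fold changes were small and below 0. On the log2 scale, blebbistatin minus control, the median of the 37 was −0.13, beside 0.04 over all tested genes, and 25 of 37 were negative, whereas 54.1% of all tested genes were positive. For 26 of the 37 the 95% interval of the fold change lay within 2-fold in either direction, and for 12 it lay within 1.5-fold. No member had group ranges that did not overlap, where 0.242% of all tested genes had (0.0829% higher and 0.159% lower with blebbistatin). In 12 members at least 7 of the 8 treated libraries lay on the same side of the control median, and in 3 of them all 8 did: Aldoc above, Pkm and Slc16a3 below. The share of all tested genes that did so was not counted, so these 2 counts describe the members only.

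**Figure D1:**
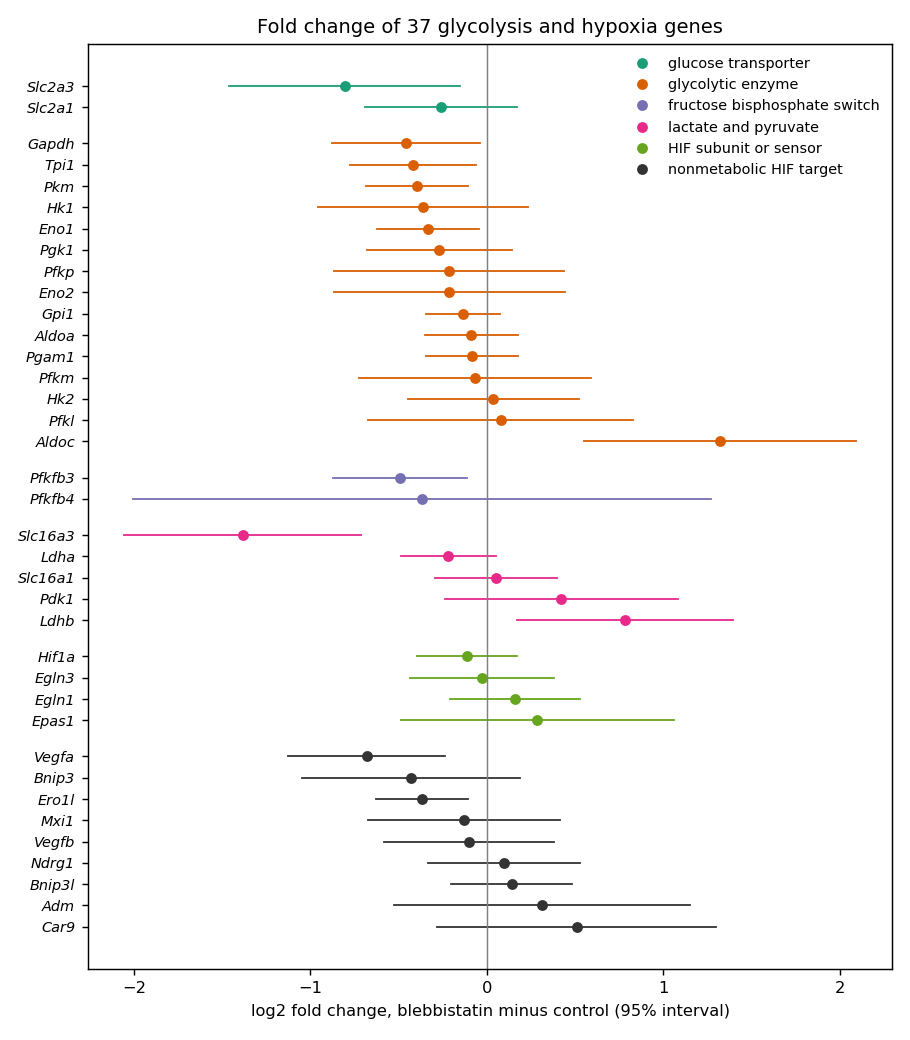
Log2 fold change of each of the 37 genes (blebbistatin minus control, x axis) with its 95% interval from the edgeR fit, ordered and coloured by role. Most points lie slightly left of 0, and the 2 farthest from it are Aldoc at 1.32 and Slc16a3 at −1.38.

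Glucose enters cells through facilitative transporters. Slc2a1, which encodes the widely expressed transporter GLUT1, had lowest, median and highest values of 63.5, 112 and 182 CPM with blebbistatin and 89.0, 136 and 218 CPM in controls. These ranges overlapped over most of their length, with library 8 highest and library 1 lowest among the treated (log2 fold change −0.26, SE 0.21, adjusted p = 0.663). Slc2a3, for the high-affinity transporter GLUT3 (ENSMUSG00000003153, chr6:122727809-122801640), stood at 10.3, 25.2 and 85.7 CPM with blebbistatin and 31.6, 53.2 and 80.3 CPM in controls. Of the treated libraries 7 of 8 lay below the control median, while blebbistatin library 2 was above every control (log2 fold change −0.81, SE 0.31, adjusted p = 0.280). Without that library the Slc2a3 difference had an adjusted p of 0.0282. Over all 28 alternatives (other scalings, tests, covariates and left-out libraries) it ran from there to 0.516.

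Among the 15 glycolytic enzymes the levels spanned about 2 orders of magnitude. Levels between genes are compared here as CPM per kilobase of the longest protein-coding transcript, averaged over the 8 controls, and for each gene's own row without its near-identical copies. By own rows Pgam1 (phosphoglycerate mutase) was highest at 191, followed by Aldoa (aldolase A) at 187, Eno1 (enolase 1) at 137, Pkm (pyruvate kinase) at 118 and Gapdh (glyceraldehyde-3-phosphate dehydrogenase) at 106. Gpi1 (glucose-6-phosphate isomerase) followed at 58.9, Tpi1 (triosephosphate isomerase) at 44.8 and Pgk1 (phosphoglycerate kinase) at 32.5. The hexokinases stood lower, with Hk2 at 13.6 and Hk1 at 3.73. So did the phosphofructokinases, Pfkp at 5.94, Pfkm at 2.89 and Pfkl at 2.38, which catalyse the committed step. Eno2, the enolase known from neurons, was at 6.29, and Aldoc, the aldolase known from brain, was lowest of the 15 at 1.77.

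Of the 15 enzymes 12 had a negative log2 fold change, with a median of −0.21 and a range from −0.46 to 1.32, and 0 passed the adjusted threshold. Aldoc (ENSMUSG00000017390, chr11:78322968-78327781) was at the upper end. Its lowest, median and highest values were 5.28, 11.5 and 19.4 CPM with blebbistatin and 2.60, 3.55 and 13.3 CPM in controls, so that each of the 8 treated libraries exceeded the control median. The groups overlapped: control library 6 reached the middle of the treated range, and the other 7 controls lay at or below 5.80 CPM. The means were 12.4 ± 5.51 CPM and 4.94 ± 3.55 CPM (SD, n = 8 each), a fitted ratio of 2.50 with a 95% interval of 1.46 to 4.27 (log2 fold change 1.32, SE 0.37, adjusted p = 0.106). Without control library 6, which also had the highest macrophage marker sum, the Aldoc difference was 1.72 (adjusted p = 0.0101). With the macrophage marker sum as a covariate it was 1.49 (adjusted p = 0.0286), and with the Y-linked level as a covariate its adjusted p was 0.362. Over 28 alternatives the Aldoc difference ran from 1.19 to 1.72.

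Pkm (ENSMUSG00000032294, chr9:59656368-59679375), for the last enzyme of the pathway, stood at 133, 225 and 279 CPM with blebbistatin and 220, 285 and 369 CPM in controls. All 8 treated libraries were below the control median, and the highest of them exceeded 3 controls (log2 fold change −0.39, SE 0.14, adjusted p = 0.225). Gapdh stood at 55.4, 104 and 198 CPM with blebbistatin and 118, 143 and 229 CPM in controls. Library 1 was highest in each group, and 7 of 8 treated libraries lay below the control median (log2 fold change −0.46, SE 0.20, adjusted p = 0.354). Eno1 stood at 177, 202 and 366 CPM with blebbistatin and 228, 281 and 334 CPM in controls, with blebbistatin library 1 above every control and the other 7 below the control median (log2 fold change −0.33, SE 0.14, adjusted p = 0.324). Without blebbistatin library 1, the treated library above every control, Eno1 passed the adjusted threshold (adjusted p = 0.0372). Over 28 alternatives Eno1 passed in 2, and its adjusted p ran up to 0.484. Tpi1 had 7 of 8 treated libraries below the control median and a difference of −0.42 on the log2 scale (adjusted p = 0.307).

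Hk2, for the inducible hexokinase that phosphorylates incoming glucose, stood at 53.4, 63.7 and 175 CPM with blebbistatin and 44.5, 74.4 and 109 CPM in controls. Blebbistatin library 8 was far above the other treated libraries, and 6 of 8 treated libraries lay below the control median (log2 fold change 0.04, SE 0.23, adjusted p = 0.964). Leaving that library out moved the Hk2 value to −0.26. The sign also turned in other alternatives, such as without control library 4 (−0.05) or with the replicate block (−0.05), so it was not settled. Pfkp, for the platelet-type phosphofructokinase, stood at 5.43, 22.6 and 28.7 CPM with blebbistatin and 10.3, 21.4 and 42.9 CPM in controls, with blebbistatin library 1 alone far below the other treated libraries (log2 fold change −0.21, SE 0.31, adjusted p = 0.825). The other log2 fold changes were −0.36 for Hk1, 0.08 for Pfkl, −0.07 for Pfkm, −0.14 for Gpi1, −0.09 for Aldoa, −0.27 for Pgk1, −0.08 for Pgam1 and −0.21 for Eno2. Of these, Aldoa, Pgam1 and Gpi1 were measured most closely: the 95% intervals of their log2 fold changes were −0.35 to 0.17, −0.35 to 0.18 and −0.34 to 0.07.

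**Figure D2:**
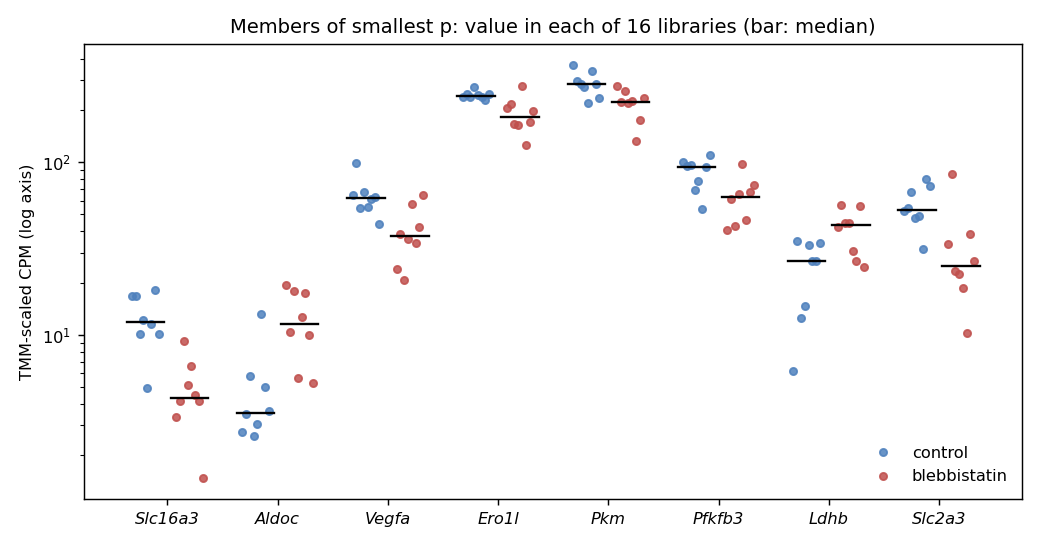
TMM-scaled CPM (log axis) of the 8 genes of smallest p in each of the 16 libraries, with blebbistatin and control side by side and a bar at each group's median. In each gene the point clouds overlap. For Slc16a3 only control library 5 reaches into the treated range, with treated values from 1.48 to 9.19 and controls from 4.91 to 18.2 CPM.

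Several of these enzymes have near-identical copies elsewhere in the genome, so reads can be shared between rows. Copies were counted as other GENCODE M21 genes with at least 95% identity over at least 200 aligned bases of the member's transcript. Of the 37 members 11 had such a copy, and 6 had copies that were rows of the table: Gapdh, Eno1, Pgk1, Pgam1, Gpi1 and Bnip3l. Gapdh stood apart with 78 copies, 75 of them pseudogenes, of which 49 had a row. Together these rows held a median of 519 CPM with blebbistatin and 622 CPM in controls. Within a library the copies exceeded Gapdh's own row by a median factor of 5.12 with blebbistatin and 4.24 in controls. For Eno1 the 2 copies in the table averaged 144 and 180 CPM, and for Pgk1 the 2 copies averaged 35.4 and 42.1 CPM.

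With the copies added to each member, the direction of all 6 remained that of the member's own row. The Gapdh sum differed by −0.34 on the log2 scale (SE 0.12, adjusted p = 0.228), and its range was 445 to 781 CPM with blebbistatin and 694 to 949 CPM in controls. The sums gave −0.33 for Eno1, −0.26 for Pgk1, −0.11 for Pgam1, −0.13 for Gpi1 and 0.14 for Bnip3l, and 0 of the 6 passed the adjusted threshold. The order of levels per kilobase given above is that of own rows and turned with the copies: Gapdh then stood at 548 CPM per kilobase in controls, Eno1 at 226 and Pgam1 at 199.7, above Aldoa. Exons of Gpi1, Pfkp, Hif1a, Car9 and Gapdh also overlap those of another gene on the opposite strand that has a row (741, 748, 330, 214 and 68 bases). So do exons of Tpi1, Aldoa and Pfkm, over 34, 25 and 18 bases. No source used here states whether the counting used strand.

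**Figure D3:**
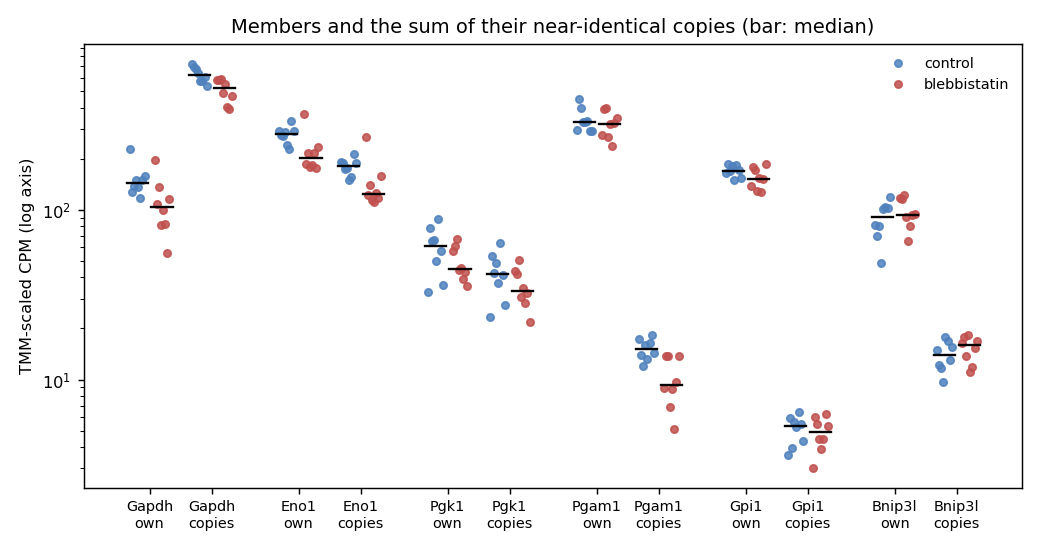
TMM-scaled CPM (log axis) of each member's own row and of the sum of its near-identical copies in the 16 libraries, with a bar at each group's median. The copies of Gapdh lie above its own row in every library, whereas those of Gpi1, Pgam1 and Bnip3l lie well below theirs.

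The bifunctional enzymes Pfkfb3 and Pfkfb4 make and remove fructose 2,6-bisphosphate, the activator of phosphofructokinase. Pfkfb3 (ENSMUSG00000026773, chr2:11471433-11554077) stood at 40.3, 63.4 and 98.3 CPM with blebbistatin and 53.5, 94.4 and 110 CPM in controls. Of the treated libraries 7 of 8 lay below the control median, with blebbistatin library 5 the exception (log2 fold change −0.49, SE 0.18, adjusted p = 0.251). Pfkfb4 was barely detected, with medians of 0.470 and 0.747 CPM and 0 counts in blebbistatin library 8, and its log2 fold change of −0.37 carried a standard error of 0.78.

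Lactate and pyruvate handling held the member with the smallest p, the lactate exporter Slc16a3. Slc16a3 encodes MCT4, which exports lactate from glycolytic cells (ENSMUSG00000025161, chr11:120948480-120960868). Its lowest, median and highest values were 1.48, 4.33 and 9.19 CPM with blebbistatin and 4.91, 11.9 and 18.2 CPM in controls. All 8 treated libraries lay below the control median, and 7 of the 8 controls were above every treated library, the exception being control library 5. The means were 4.82 ± 2.30 CPM and 12.6 ± 4.46 CPM (SD, n = 8 each), with the lowest value in blebbistatin library 8 and the highest in control library 7 (log2 fold change −1.38, SE 0.32, adjusted p = 0.0526). The adjusted p just missed the threshold and ran from 0.00179 (DESeq2) to 0.266 over 28 alternatives, of which 7 passed. The edgeR fit with the macrophage covariate was among those 7 (adjusted p = 0.0336). The fit with the Y-linked covariate was not, and neither was limma voom (adjusted p = 0.0767). With a library left out, 4 of 16 fits passed and the adjusted p ran from 0.0350 to 0.124. Leaving out control library 5, the low control, gave −1.50 (adjusted p = 0.0350).

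Slc16a1, for the broadly expressed transporter MCT1, had a log2 fold change of 0.05 with a 95% interval of −0.29 to 0.40. Ldha, for the dehydrogenase subunit that favours lactate formation, stood at 180, 234 and 291 CPM with blebbistatin and 208, 254 and 357 CPM in controls. The groups overlapped between 208 and 291 CPM (log2 fold change −0.22, SE 0.13, adjusted p = 0.527). Ldhb, for the heart-type subunit that favours the return of lactate to pyruvate (ENSMUSG00000030246, chr6:142490249-142507957), stood at 24.9, 43.3 and 56.9 CPM with blebbistatin and 6.15, 26.9 and 35.1 CPM in controls. Control library 1 was lowest, 6 of 8 treated libraries were above the control median, and the groups overlapped between 24.9 and 35.1 CPM. The means of Ldhb were 40.8 ± 12.3 CPM and 23.7 ± 11.1 CPM (log2 fold change 0.78, SE 0.29, adjusted p = 0.258). Pdk1, the kinase that inhibits pyruvate dehydrogenase in the mitochondrion, stood at 5.21, 12.5 and 29.2 CPM with blebbistatin and 6.27, 10.8 and 20.3 CPM in controls, with wide overlap (log2 fold change 0.42, SE 0.31, adjusted p = 0.642).

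Apart from the small constant added to each gene, the scaling of a library cancels in the ratio of 2 of its genes. For 12 such pairs among the members the groups' log2 ratios were set against each other by exact permutation (2-sided, 12870 ways to divide the 16 libraries), with p-values adjusted over the 12 pairs and 0.5 CPM added to each gene. The ratios rest on the same counts as the single genes above. Those of 3 pairs differed: Aldoc to Aldoa, Ldhb to Ldha, and Slc16a3 to Slc16a1. On the level scale per kilobase, the typical Aldoc to Aldoa ratio (geometric mean over libraries) was 0.0242 with blebbistatin and 0.00931 in controls, that of Ldhb to Ldha 0.240 and 0.111, and that of Slc16a3 to Slc16a1 0.114 and 0.295. In each of these 3 pairs the more abundant gene by this measure was the same in both groups.

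The log2 ratio of Aldoc to Aldoa averaged −4.52 ± 0.80 with blebbistatin and −5.90 ± 0.65 in controls (SD, n = 8 each), a difference of 1.38 (exact permutation adjusted p = 0.0211). The log2 ratio of Ldhb to Ldha averaged −2.54 ± 0.48 and −3.65 ± 0.93, a difference of 1.12 (exact permutation adjusted p = 0.0211). All 8 treated libraries lay above the control mean in each of these pairs. The log2 ratio of Slc16a3 to Slc16a1 averaged −3.16 ± 0.99 and −1.79 ± 0.62, a difference of −1.37 (exact permutation adjusted p = 0.0211), with all 8 treated libraries below the control mean. These calls were close to the threshold: without blebbistatin library 1 none of the 12 passed, with adjusted p-values of 0.0513 for the Aldoc and Slc16a3 pairs and 0.0584 for the Ldhb pair. The Ldhb pair also reached 0.0584 without blebbistatin library 2 or 4. Unlike the single genes, the ratios were not refitted with the Y-linked level or the macrophage sum as a covariate.

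The other 9 pairs did not pass. The log2 ratio of Vegfb to Vegfa differed by 0.57 (adjusted p = 0.165 by the exact permutation test, and 0.0462 without blebbistatin library 7), that of Slc2a3 to Slc2a1 by −0.71 (0.231) and that of Bnip3 to Bnip3l by −0.54 (0.345). For Epas1 to Hif1a the difference was 0.35, for Hk2 to Hk1 0.30, for Pfkfb4 to Pfkfb3 0.31, for Eno2 to Eno1 0.12, for Pfkp to Pfkl −0.24 and for Pfkm to Pfkl −0.03. Hk2 was the more abundant hexokinase in both groups, with a ratio to Hk1 of 4.56 and 3.70 on the level scale per kilobase. On that scale the ratio of Vegfb to Vegfa was 1.42 with blebbistatin and 0.952 in controls, so the more abundant gene changed in this pair.

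**Figure D4:**
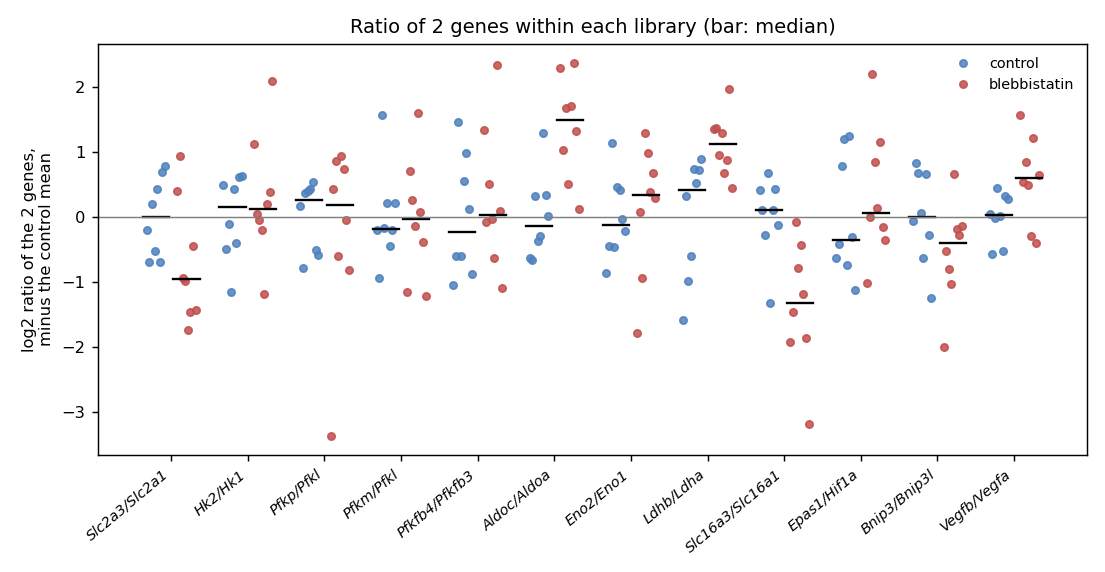
Log2 ratio of 12 pairs of related genes in each of the 16 libraries, with the mean of the 8 controls subtracted (y axis) and a bar at each group's median. The treated points of Aldoc/Aldoa and Ldhb/Ldha lie above 0 and those of Slc16a3/Slc16a1 below it, with a difference of means of 1.38, 1.12 and −1.37.

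The promoters of these 3 pairs are shown because their ratios differed in the exact test, and the capitals mark where the HIF core motif occurs in each. The motif searched was ACGTG or GCGTG on either strand, that is also CACGT or CACGC as read here. Where the letters read CACGTG they are also an E-box, a site of other factors, and count as 2 overlapping matches. The sequences are from RefSeq on build GRCm38.p6, read along the gene's strand over the 250 bases before a start. For Aldoc and Slc16a3, whose window overlaps an annotated first exon, each match is shown with 9 bases on either side.
Aldoa, chr7:126799255-126799504, minus strand: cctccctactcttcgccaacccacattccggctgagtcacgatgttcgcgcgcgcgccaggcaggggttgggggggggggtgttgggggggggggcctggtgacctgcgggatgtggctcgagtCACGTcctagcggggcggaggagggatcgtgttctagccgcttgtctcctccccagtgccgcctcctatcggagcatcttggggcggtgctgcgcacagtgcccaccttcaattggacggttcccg
Aldoc, chr11:78323014-78323036, plus strand: cctctgaggGCGTGgccttaccc
Ldha, chr7:46845554-46845803, plus strand: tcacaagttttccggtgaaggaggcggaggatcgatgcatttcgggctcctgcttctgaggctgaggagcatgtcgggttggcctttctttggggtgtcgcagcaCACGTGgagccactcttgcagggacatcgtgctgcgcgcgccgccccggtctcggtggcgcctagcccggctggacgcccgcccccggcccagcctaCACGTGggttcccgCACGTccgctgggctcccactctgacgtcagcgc
Ldha, chr7:46846832-46847081, plus strand: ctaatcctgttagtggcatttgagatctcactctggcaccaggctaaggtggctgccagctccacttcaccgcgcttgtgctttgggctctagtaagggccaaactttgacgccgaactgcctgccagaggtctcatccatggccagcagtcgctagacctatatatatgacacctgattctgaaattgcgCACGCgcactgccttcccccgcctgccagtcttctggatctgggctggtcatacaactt
Ldhb, chr6:142507958-142508207, minus strand: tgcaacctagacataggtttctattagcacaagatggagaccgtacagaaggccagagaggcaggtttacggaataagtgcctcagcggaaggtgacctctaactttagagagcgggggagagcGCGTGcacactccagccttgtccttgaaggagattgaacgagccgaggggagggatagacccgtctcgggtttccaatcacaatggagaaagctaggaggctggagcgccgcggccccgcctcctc
Slc16a1, chr3:104638414-104638663, plus strand: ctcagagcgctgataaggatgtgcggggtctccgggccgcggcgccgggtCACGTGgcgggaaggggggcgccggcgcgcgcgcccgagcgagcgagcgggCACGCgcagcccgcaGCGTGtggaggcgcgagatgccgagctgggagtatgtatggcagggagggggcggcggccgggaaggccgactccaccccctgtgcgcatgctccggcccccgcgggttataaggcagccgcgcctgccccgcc
Slc16a3, chr11:120949031-120949053, plus strand: gcagcggtgACGTGcgcggggga
Slc16a3, chr11:120949044-120949066, plus strand: gcgcgggggACGTGccgcgcgac

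The Ldha window at its upstream start held 5 matches in these letters, at 145, 144, 48, 47 and 34 bases before the start, including 2 E-boxes. That of Slc16a1 held 4, at 200, 199, 149 and 134 bases, including 1 E-box. The Slc16a3 window held 2, at 27 and 14 bases. Those shown of Aldoa and Ldhb held 1 each, at 126 bases in either gene, the Aldoc window shown 1 at 50 bases and its further window, not shown, 1 at 39 bases, and the downstream start of Ldha 1 at 59 bases. Over all members, 32 of 37 had a window in the RefSeq table, of which 27 (84.4%) held at least 1 match, beside 12679 of all 32851 windows (38.6%). The share was 11 of 15 (73.3%) for the glycolytic enzymes and 5 of 6 (83.3%) for the nonmetabolic targets with a window. Gpi1, Tpi1, Eno2, Pkm and Vegfa held no match in this window, and Bnip3 held 5. A match is a description of the letters and was not tested against the expression values. The share of the members is not matched to that of all windows. Members gave 1 window each, the nearest to the start of the longest protein-coding transcript. All windows included several for some genes, whether or not the gene was measured here. An enrichment of the motif was not tested.

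The HIF system itself showed no member at an unadjusted p under 0.05. Hif1a, for the main oxygen-regulated subunit, stood at 118, 166 and 213 CPM with blebbistatin and 132, 179 and 239 CPM in controls. The ranges overlapped over most of their length, and the 95% interval of the log2 fold change was −0.40 to 0.17 (log2 fold change −0.11, SE 0.14, adjusted p = 0.784). HIF-1 alpha is controlled mostly at the protein level, which RNA does not measure. Egln3, the prolyl hydroxylase that HIF itself induces, stood at 19.3, 29.2 and 46.1 CPM with blebbistatin and 25.3, 29.4 and 47.9 CPM in controls, with 4 treated libraries on either side of the control median (log2 fold change −0.03, SE 0.20, adjusted p = 0.969). Epas1, for the HIF-2 alpha subunit, had a log2 fold change of 0.29 (SE 0.37) and Egln1, the main oxygen sensor, of 0.16 (SE 0.18). Epas1 varied most of the 4, from 14.4 to 88.2 CPM with blebbistatin and from 12.7 to 57.4 CPM in controls, and was highest in blebbistatin library 3 and control library 6, the libraries with the highest macrophage marker sums.

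Of the 9 genes listed as nonmetabolic targets with a row, 5 had a negative and 4 a positive log2 fold change. Their median of −0.10 was the value of Vegfb. Vegfa, the growth factor of blood vessels (ENSMUSG00000023951, chr17:46016993-46032369), stood at 20.9, 37.2 and 65.0 CPM with blebbistatin and 43.8, 62.4 and 99.8 CPM in controls. Of the treated libraries 7 of 8 lay below the control median, and blebbistatin library 8 was the exception. The means of Vegfa were 39.8 ± 15.1 CPM and 63.8 ± 16.4 CPM (log2 fold change −0.68, SE 0.21, adjusted p = 0.158), and over 28 alternatives its adjusted p ran from 0.0522 to 0.431. Ero1l, for the oxidase that forms disulfide bonds in the endoplasmic reticulum (ENSMUSG00000021831, chr14:45283087-45318771), stood at 126, 184 and 279 CPM with blebbistatin and 231, 244 and 273 CPM in controls. The controls were tightly grouped and the treated were not, with a coefficient of variation of 24.0% against 5.08%, and blebbistatin library 5 lay above every control (log2 fold change −0.36, SE 0.12, adjusted p = 0.208). Without that library Ero1l passed, at −0.46 (adjusted p = 0.0452). This was the only 1 of 28 alternatives in which Ero1l passed, and its adjusted p ran up to 0.453.

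Bnip3, a receptor of mitophagy, stood at 4.15, 11.4 and 16.2 CPM with blebbistatin and 7.45, 12.5 and 25.8 CPM in controls, with 6 of 8 treated libraries below the control median (log2 fold change −0.43, SE 0.30, adjusted p = 0.610). Car9, the surface carbonic anhydrase used as a hypoxia marker, stood at 1.48, 7.24 and 11.4 CPM with blebbistatin and 2.22, 3.54 and 9.23 CPM in controls, with 7 of 8 treated libraries above the control median (log2 fold change 0.51, SE 0.38, adjusted p = 0.643). Adm, for the vasodilator adrenomedullin, stood at 1.20, 6.92 and 11.2 CPM with blebbistatin and 2.93, 4.43 and 10.2 CPM in controls, with 5 of 8 above (log2 fold change 0.31, SE 0.40, adjusted p = 0.800). The lowest treated library lay below the controls in each of these 3 genes, and the groups overlapped widely. The remaining log2 fold changes were −0.10 for Vegfb, 0.14 for Bnip3l, 0.10 for Ndrg1 and −0.13 for Mxi1. Mxi1, a repressor of the Myc network, was even over the 8 controls, at 16.4 to 19.8 CPM, but not over the treated, at 8.27 to 40.9 CPM, a coefficient of variation of 6.10% against 62.5%.

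Set side by side, the glycolytic enzymes and the nonmetabolic targets had medians of log2 fold change of −0.21 and −0.10, beside 0.04 over all tested genes. At an unadjusted p under 0.05 the enzymes had 5 of 15 (1 higher, 4 lower) and the targets 2 of 9 (both lower). These shares were 33.3% and 22.2%, beside 12.2% of all tested genes. The mean log2 CPM of the 15 enzymes per library had a lowest, median and highest value of 5.50, 5.66 and 5.75 with blebbistatin and 5.43, 5.76 and 6.08 in controls. The treated libraries thus fell inside the control range, with an SD of 0.09 against 0.25. The mean of the 9 targets was 4.17, 4.75 and 4.91 with blebbistatin and 4.61, 4.77 and 5.11 in controls, with blebbistatin library 4 lowest. Within a library, the enzymes exceeded the targets by 0.70, 0.88 and 1.41 on the log2 scale with blebbistatin and by 0.72, 0.95 and 1.16 in controls. The group means of that difference were 0.96 ± 0.23 and 0.95 ± 0.16 (SD, n = 8 each), and the ranges overlapped. Which of the medians of fold change was lower depended on the libraries and on the model. The enzymes' median was below that of the targets in 23 of 28 alternatives and above it in 5. Among these 5 were the fit with the Y-linked covariate (−0.16 for the enzymes, −0.23 for the targets) and those without blebbistatin library 1, blebbistatin library 8 or control library 6.

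**Figure D5:**
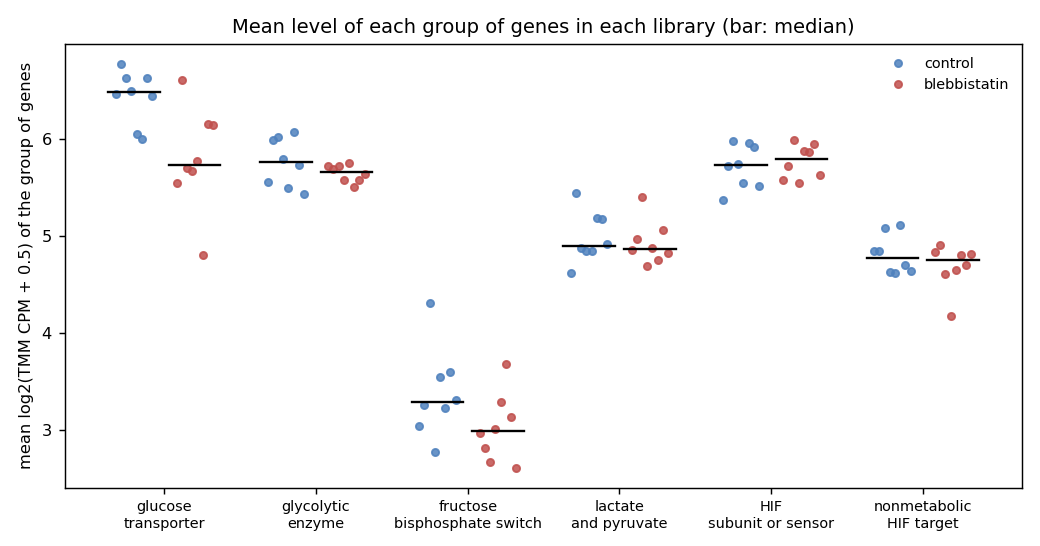
Mean log2(TMM-scaled CPM + 0.5) of the genes of each role in each of the 16 libraries, with a bar at each group's median. The treated and control points overlap in all 6 roles. Treated points reach below every control in the glucose transporters (down to 4.81), the fructose 2,6-bisphosphate enzymes (2.61) and the nonmetabolic targets (4.17).

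The members tended to vary more between treated than between control libraries. Their median coefficient of variation was 36.8% with blebbistatin and 26.2% in controls, and 26 of 37 (70.3%) had the larger value with blebbistatin. Over all tested genes the medians were 36.5% and 31.9%, and 61.4% had the larger value with blebbistatin, so the share among the members was near the background. The glycolytic enzymes (36.8% and 27.6%) and the nonmetabolic targets (38.0% and 25.5%) had values close to these.

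The other genes of these pathways came from 5 lists of names, in which 4 genes passed. Of 25 other genes of glycolysis and glycogen with a row, from 34 listed, 0 passed and 3 (12%) had an unadjusted p under 0.05, near the 12.2% of all tested genes. All 3 had higher values: Pygb, a glycogen phosphorylase, at 0.38 (adjusted p = 0.225), Bpgm, which makes 2,3-bisphosphoglycerate, at 0.99 (adjusted p = 0.232), and Slc2a4, the insulin-responsive glucose transporter, at 1.94 (adjusted p = 0.327) from medians of 1.10 and 0.267 CPM. Tigar, which lowers fructose 2,6-bisphosphate, was at −0.36 (adjusted p = 0.499). Of 14 genes of pyruvate transport and use in the mitochondrion 0 had an unadjusted p under 0.05. Pdk4, a further pyruvate dehydrogenase kinase, was at 0.86 (adjusted p = 0.420), Mpc2, a subunit of the pyruvate carrier, at −0.44 (0.5259), Pcx, pyruvate carboxylase, at 0.71 (0.560) and Pdhb, a subunit of pyruvate dehydrogenase, at −0.20 (0.580). Of 8 pentose phosphate genes 0 passed, while 1 higher and 2 lower had an unadjusted p under 0.05 (37.5%, beside 12.2% of all tested genes). H6pd, which makes NADPH in the endoplasmic reticulum, was at 0.46 (adjusted p = 0.217), Rpe, an epimerase of the nonoxidative branch, at −0.42 (0.286), Taldo1, transaldolase, at −0.41 (0.318) and G6pdx, the entry enzyme, at 0.17 (0.722).

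Of 11 further genes of the HIF pathway 0 passed, and 4 had an unadjusted p under 0.05, 2 in each direction (36.4%, beside 12.2% of all tested genes). Arnt2, a partner subunit of HIF alpha, was nearest at −0.75 (SE 0.19, adjusted p = 0.0792), with all 8 treated libraries below the control median, and reached an adjusted p of 0.0121 by DESeq2. Cited2, which competes with HIF for its coactivator, was at −0.48 (adjusted p = 0.282), Arnt, the main partner subunit, at 0.23 (0.327) and Hif3a, a further alpha subunit, at 1.74 (0.387).

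The 4 genes that passed were all among 34 further HIF targets with a row, from 36 listed, 1 higher and 3 lower, where the background was 0.255% higher and 0.351% lower. Earlier results of these data were known when the list was chosen, so its excess over that background is no independent result. The list leaned below 0, with 25 of 34 negative and a median of −0.19. Stc1, for the secreted hormone stanniocalcin, rose from 4.80 ± 4.03 CPM in controls to 73.0 ± 66.7 CPM (log2 fold change 3.92, adjusted p = 0.00701). Its treated values ran from 9.22 to 178 CPM and its control values from 0.233 to 13.5 CPM. Bhlhe40, a transcriptional repressor, fell by 0.60 on the log2 scale (SE 0.12, adjusted p = 0.0198), with 149 ± 17.1 CPM in controls and 98.3 ± 18.5 CPM in treated explants. P4ha1, a collagen prolyl hydroxylase, fell by 0.57 (SE 0.12, adjusted p = 0.0319), with 152 ± 20.1 and 102 ± 19.1 CPM. Lox, which crosslinks collagen and elastin, fell by 1.37 (adjusted p = 0.0198), with ranges of 1137 to 2648 CPM in controls and 307 to 1402 CPM in treated explants. Treated and control ranges touched or overlapped in all 4 genes. With the summed Y-linked level as a covariate 0 of the 4 passed (adjusted p = 0.164 for Stc1, 0.121 for Bhlhe40, 0.176 for P4ha1 and 0.114 for Lox). P4ha1 did not pass in 11 of 16 fits with a library left out, and Bhlhe40 and Lox did not pass without control library 7 (0.0503 each). The smooth muscle marker sum and the mitochondrial share moved with the same groups, and their part in these 4 changes was not tested.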

How the data were processed

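RNA from 16 mouse epicardial explants was sequenced after amplification with an Ovation kit and Nextera XT library preparation, per the labels' protocols. The authors deposited raw read counts per gene, 1 column for each explant, and those counts are the unit used here. The tools named for build mm10 (GRCm38), per the submitters' processing notes, were HTSeq 0.6.1p1, SAMtools 1.3, TopHat2 2.1.0, edgeR and Bowtie2 2.2.6.0. No source used here gives the annotation, the strand setting or a filter. Each of the 15805 genes in the table exceeded 1 CPM in at least 4 libraries, so lower genes were not analysed here.

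Counts were scaled by TMM and filtered with filterByExpr, leaving 15675 genes. Groups were tested in R 4.3.3 with the robust quasi-likelihood fit of edgeR 4.0.16 and no covariate. The threshold was a Benjamini-Hochberg adjusted p of 0.05 over the whole tested table. It was tested on simulated data. Library depth was 20176386 to 89620195 counts, and the biological coefficient of variation was 50.1%. Within a group no library repeated another, with a chi-square of at least 48.7 per degree of freedom.

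The members and gene lists were chosen with earlier results of these data known. Every member is named with its fold change. Full values are given for the 8 members of smallest p and, whatever their result, for Slc2a1, Hk2, Pfkp, Gapdh, Ldha, Pdk1, Hif1a, Egln3, Vegfa, Bnip3, Car9 and Adm. Of the other lists, genes that passed and up to 4 of smallest p are named. Near-identical copies were found with blastn 2.17.0+ against GENCODE M21 transcripts. Alternatives were other scalings, no filter, DESeq2 1.42.0, limma voom 3.58.1, a replicate block, covariates and left-out libraries.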

Additional observations from a re-analysis of the deposited data

Results flagged for a closer look

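Of 74 groups of 8 values, 1 for each member and treatment, 6 held a library whose log2 value stood far from the others by Dixon's ratio of the gap to the nearest library over the group's range, above its 95% critical value. Chance flags about 1 in 20 groups. Blebbistatin library 1 was low in Pfkp at 5.43 CPM, with the nearest at 16.1 CPM (0.646), and high in Eno1 at 366 CPM, with the nearest at 235 CPM (0.612). Blebbistatin library 8 was high in Hk2 at 175 CPM, with the nearest at 80.9 CPM (0.65). Libraries 1 and 8 had the fewest genes detected of the treated libraries. Blebbistatin library 5 was high in Hk1 at 25.8 CPM, with the nearest at 13.2 CPM (0.536). Control library 1 was high in Gapdh at 229 CPM, with the nearest at 159 CPM (0.55), and control library 5 was low in Slc16a3 at 4.91 CPM, with the nearest at 10.1 CPM (0.541).

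Of 24 groups of ratios 2 held such a library. The log2 ratio of Pfkp to Pfkl in blebbistatin library 1 was −1.95, with the nearest at 0.61 (0.594). The log2 ratio of Pfkm to Pfkl in control library 3 was 1.47, with the nearest at 0.13 (0.536).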

How the results depend on the processing

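Of 19 members followed through 28 alternatives, 17 kept their direction. Hk2 was −0.0033 by limma voom, −0.051 with the replicate block, −0.34 without the 2 libraries of fewest genes detected and −0.26 to 0.13 with a library left out. Egln3 was 0.011 without the libraries of most macrophage counts, an alternative chosen after seeing the data, and −0.13 to 0.077 with a library left out. The median over all members ran from −0.20 to −0.10. Members called (0 as reported) were 2 by DESeq2, 1 with the replicate block (Aldoc, adjusted p = 0.0445), 2 with the macrophage covariate, 1 without the libraries of fewest genes, 2 without those of most macrophage counts, and 0 to 2 with a library left out. Calls over all genes (95) were 424 by DESeq2, 177 with the block, 22 with the Y-linked covariate, 262 with the macrophage covariate and 44 to 206 with a library left out. Other pathway genes called (4) were 7 by DESeq2, 0 with the Y-linked covariate and 1 to 5 with a library left out. Isozyme ratios that passed (3) were 0 with the replicate block and 0 to 4 with a library left out. With a library left out the ratio difference ran from −0.40 to 0.21 for Pfkp/Pfkl, from −0.27 to 0.19 for Pfkm/Pfkl and from −0.042 to 0.40 for Eno2/Eno1. Replicate numbers did not pair the libraries: 4 of 8 same-numbered pairs had a correlation of deviations over 0.1, and 2 of 8 correlated best with their own number. The cause of these shifts was not tested. Pfkfb4 had the fewest counts of the members in its lowest library, at 0, and 103 in its highest.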
